A study of Mus musculus with 70 samples.

Results

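Regulatory T cells (Tregs) that carry ST2, the receptor for the alarmin cytokine IL-33, were compared between abdominal visceral adipose tissue (VAT) and spleen of the same 5 mice. The comparison took every library labelled as ST2+ CD44hi Tregs of either tissue whose counts summed to more than 1000000. Of the 70 RNAseq libraries of the study 67 passed this minimum, and 10 of them met the rule, 5 from VAT and 5 from spleen. The study sorted Tregs of 6 tissues (VAT, lungs, colon, skin of the back, spleen and blood) to ask how ST2 and tissue relate to what Tregs express. All mice were males on the B6.129(Cg) background with no treatment named in the labels. They carried the allele Foxp3tm4(YFP/icre)Ayr, by which the Foxp3 locus also drives a yellow fluorescent protein with Cre recombinase, and they were 16.6, 17.1, 17.4, 18.1 and 18.6 weeks old (mice 1 to 5). Every library of both groups was made from 220 sorted cells that were CD4+ YFP+ ST2+ CD44hi and lacked CD8 and CD11b. Those 2 groups were set beside ST2- CD44hi Tregs of VAT (93 to 220 cells) and spleen (220 cells), and beside ST2+ CD44hi Tregs of the lungs (220 cells), with 5 libraries each from the same mice.

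ST2, encoded by Il1rl1, signals through MyD88 when IL-33 is released by stromal cells, and the build-up of Tregs in fat with age depends on IL-33. The paper adds that IL-33 can expand Tregs that lack ST2 themselves, and that how far their own ST2 drives their accumulation is not known. Tregs of visceral fat are known for the nuclear receptor PPARγ, for GATA3, for IL-10 and amphiregulin, and for limiting inflammation and preserving insulin sensitivity in the tissue. Spleen Tregs include cells that recirculate through lymphoid organs, which requires CCR7 and S1PR1.

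VAT was digested with collagenase and DNase at 37 °C, whereas spleen was disrupted mechanically and enriched for CD4+ cells on beads, so digestion and tissue cannot be told apart in VAT against spleen. The lungs were digested in the same way as VAT and also enriched on beads, and their values are given beside the results. VAT ST2+ libraries held 1535947 to 2504324 counts with 12232 to 14618 genes detected, and spleen ST2+ libraries held 1852476 to 2625746 counts with 14354 to 15602 genes. Levels are given in counts per 1000000 (CPM) after TMM scaling, a level of 1 CPM standing for about 2 counts in these libraries. Fewer cells that express a gene and less RNA per cell cannot be told apart in bulk libraries.

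The labels were checked first. Foxp3, the defining transcription factor of Tregs, was measured at 154, 161, 235, 170.5 and 155 CPM in VAT (mice 1 to 5) and at 135, 212, 173, 168 and 132 CPM in spleen, and the groups overlapped. Cd8a was at 0 in all 10 libraries. Summed over 8 markers of CD8 T cells, NK cells and type 2 innate lymphoid cells, Cd8a among them, levels differed in range. The sum was 46.9 to 267 CPM in VAT (median 154) and 46 to 83.2 CPM in spleen (median 56.6). Of the 5 tested 1 was higher in VAT and 0 lower, with a median log2 fold change of 0.54. Among transcripts of other cells, 2 stood out in a single VAT library each. The NK cell receptor gene Ncr1 was at 78.4 CPM in VAT of mouse 4 and at 0 in the other 9 libraries, and the plasma cell gene Jchain was at 999 CPM in VAT of mouse 5 against 1.82 to 47.3 CPM in the other VAT libraries and 0.385 to 10.9 CPM in spleen. Summed over 8 B cell and plasma cell markers the level ran from 36.7 to 1164 CPM in VAT and from 68 to 152 CPM in spleen. Of the 6 tested 2 were higher in VAT and 0 lower (median log2 fold change 4.33). Of the 8, 5 were at 0 in all spleen libraries and 2 in all VAT libraries. Adiponectin, perilipin 1, Cidec, leptin and resistin (Adipoq, Plin1, Cidec, Lep, Retn), which define adipocytes, were at 0 in every VAT library, whereas Fabp4, which macrophages and endothelium also make, was at 16.3, 19.1, 26.7, 10.5 and 31.7 CPM in VAT and at 0 in spleen. Of 16 macrophage, monocyte and dendritic cell markers 5 were higher in VAT, with a sum of 498 to 1134 CPM in VAT and 402 to 513 CPM in spleen. Itgam and Itgax were at 0 in VAT, 7 markers were at 0 in all spleen libraries, and Lyz2 was at 82.7, 85.1, 63.8, 56.5 and 96.5 CPM in VAT against 0, 0, 0, 0.517 and 11.7 CPM in spleen. Fibroblast markers summed to 96 to 288 CPM in VAT and 36.8 to 80.1 CPM in spleen, mesothelial markers to 20.7 to 78.4 and 0 to 14.2 CPM, and endothelial markers to 45 to 129 and 64.6 to 181 CPM. Of the 8 endothelial markers 1 was lower in VAT and 0 higher. Yet 5 of them were at 0 in all spleen libraries and 1 in all VAT libraries, and their median log2 fold change was 4.98. The part of these transcripts in the results was not tested. The VAT libraries of mouse 4 and mouse 5 were left out in turn. Lyz2 and Fabp4 were above 0 in all 5 VAT libraries, so leaving out those libraries cannot test their part.

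In ST2+ Tregs 787 genes were higher in VAT than in spleen, 5.97% of the 13173 protein-coding genes tested, and 693 genes were lower, 5.26%, so that 11.2% differed in either direction. A differentially expressed gene (DEG) changed at least 1.5-fold with an adjusted p (Benjamini-Hochberg, over all genes tested) no higher than 0.05 in edgeR's quasi-likelihood test, and "higher" and "lower" below mean called in this way. In 514 of the 787 higher genes and 445 of the 693 lower genes the 5 VAT libraries did not overlap the 5 spleen libraries, against 5.62% (higher) and 5.18% (lower) of all genes tested. Of the higher genes 126 were at 0 in all spleen libraries, and of the lower genes 113 were at 0 in all VAT libraries. Without the VAT library of mouse 4 there were 1433 DEGs, and without that of mouse 5 there were 1330 in place of 1480. With these 10 libraries fitted alone and mouse as a replicate block there were 881.

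**Figure D1:**
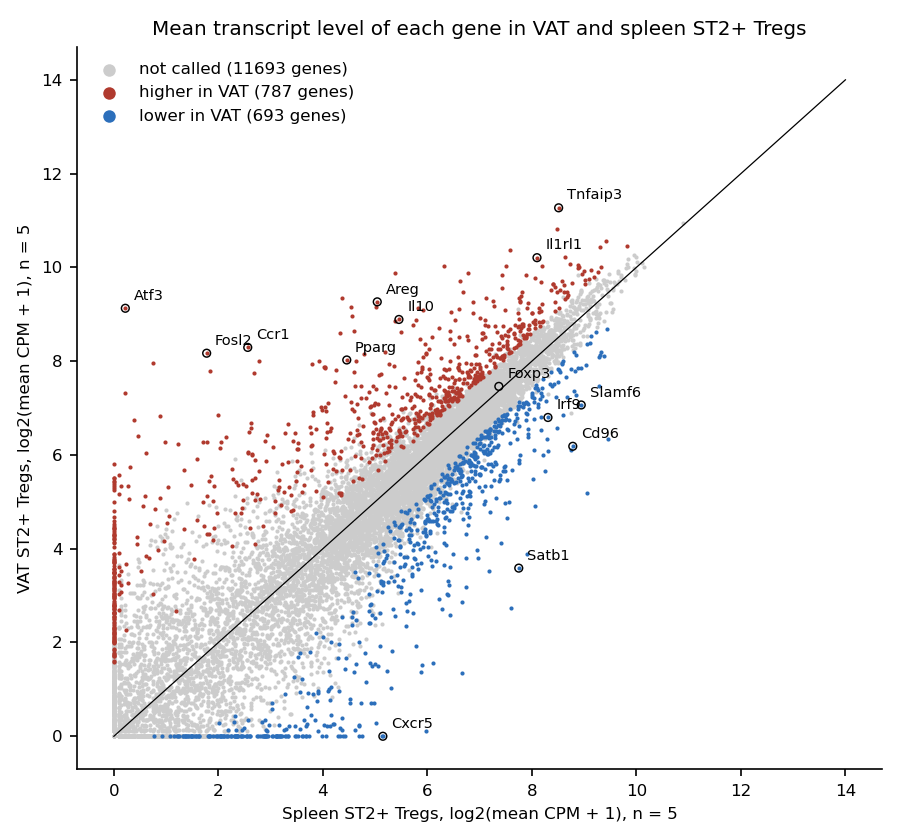
Mean level of each of the 13173 genes tested in spleen ST2+ Tregs (x axis) and VAT ST2+ Tregs (y axis), both as log2 of mean CPM plus 1 over 5 libraries, with DEGs coloured and the line marking equal levels. Atf3 and Tnfaip3 lay far above the line, Cxcr5 and Satb1 far below it, and Foxp3 on it.

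Genes of NF-κB, the transcription factor family that IL-33 and T cell receptor signals activate, and of its feedback inhibitors were largely higher in VAT. Of 18 genes of the list 10 were higher and 0 lower, against 5.97% and 5.26% of all genes, and the median log2 fold change was 0.83 (median of all genes 0.00). Tnfaip3 (chromosome 10:19000910-19015657, GRCm38), which encodes the ubiquitin-editing enzyme A20, had the smallest adjusted p of all genes. Its level was 2374, 2460.0, 2580.0, 2433 and 2498 CPM in VAT and 300.3, 462, 341, 451 and 266 CPM in spleen, a log2 fold change of 2.76 (SE 0.17, adjusted p = 1.6e-19). All VAT libraries lay within a narrow range far above spleen, and lung ST2+ Tregs, at 2061 to 2808 CPM, spanned the VAT range (log2 fold change VAT over lungs 0.04, SE 0.16, adjusted p = 0.966). Nfkbiz, a nuclear IκB protein, was at 939, 1126, 1052, 1046 and 1083 CPM in VAT and at 301, 306, 306, 363 and 191 CPM in spleen (log2 fold change 1.84, SE 0.19). Nfkbia, the classical cytoplasmic inhibitor, was at 774, 1044, 946, 875 and 1238 CPM in VAT against 407, 591, 467, 611 and 458 CPM in spleen (log2 fold change 0.94, SE 0.16). The subunit genes Nfkb1 (1.03) and Rel (0.96) were higher on the same scale, whereas Rela at 0.14, Nfkb2 at -0.36 and Relb at -0.66 did not pass the test. Against lungs 1 of the 18 genes, Bcl3, was higher in VAT and 0 were lower. Of all 13173 genes tested 172 were higher and 306 lower in VAT than in lungs, 3.63% in either direction.

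Immediate early genes, which cells switch on within minutes of stimulation and also of tissue handling, formed the list with the highest median. Of 28 AP-1, immediate early and heat shock genes 19 were higher in VAT and 2 lower, with a median log2 fold change of 1.56. Atf3, a stress-induced repressor of the ATF family, was at 522, 725, 543, 289.9 and 711 CPM in VAT and at 0, 0.466, 0, 0 and 0.354 CPM in spleen. It was thus at or near 0 in every spleen library, and since spleen held only a few counts the ratio of 3286 has a 95% counting interval of 909 to 27139. Fosl2, an AP-1 subunit, was at 208, 251, 343, 338 and 294 CPM in VAT and at 0.373, 4.19, 4.62, 2.58 and 0.354 CPM in spleen (log2 fold change 6.91, SE 0.50, adjusted p = 1.44e-16). Nr4a1, an orphan nuclear receptor induced by T cell receptor signals, was at 914, 1169, 1137, 1044 and 938 CPM in VAT and at 131, 103, 114, 29.5 and 17.7 CPM in spleen (log2 fold change 3.72, SE 0.40). The groups did not overlap for any of these genes. Egr2 ran the other way, at 6.76, 0, 2.26, 11.9 and 3.97 CPM in VAT against 169, 111, 55.8, 22.2 and 67.3 CPM in spleen (log2 fold change -4.06, SE 1.03), while Egr1 was higher in VAT (2.23, SE 0.53). Egr2 and Egr1 are related zinc finger factors that the same receptor signals induce.

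Heat shock genes were mixed. Hsph1 (log2 fold change -0.02), Dnajb1 (0.02) and Hsp90aa1 (0.42) did not pass the test. Hspa1a, which codes for an inducible HSP70 and shares nearly identical sequence with Hspa1b, was at 9.94, 138, 92.8, 70.2 and 11.2 CPM in VAT and at 3.73, 1.4, 1.92, 16.5 and 1.06 CPM in spleen, so that the groups overlapped. Its log2 fold change of 3.76 (SE 0.96) lost its call without mouse 2 (3.06, adjusted p = 0.0586). Hspa1b lost its call without mouse 2 (1.27, adjusted p = 0.436) or mouse 3 (2.25, adjusted p = 0.147), with mouse as a block in the full fit (2.35, adjusted p = 0.0515) and by DESeq2 (2.48, adjusted p = 0.0687). In the lungs, digested like VAT, Atf3 was at 90.2 to 214 CPM, Fosl2 at 112 to 231 CPM and Nr4a1 at 638 to 985 CPM. All of these lung levels lay above those of spleen. Against lungs 4 of the 28 genes were higher in VAT (Atf3, Jund, Egr1 and Hspa1a) and 0 lower, against 172 and 306 of all 13173 genes tested. The median log2 fold change of the 28 genes against lungs was 0.55.

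Amphiregulin, IL-10 and other secreted products were higher in VAT, and 9 of the 20 effector and repair genes tested were higher and 2 lower (median log2 fold change 1.25). Areg (chromosome 5:91139599-91148432), an epidermal growth factor family ligand that promotes tissue repair, was at 474, 703, 578, 544 and 772 CPM in VAT and at 30.6, 40.5, 37.7, 28.4 and 22.3 CPM in spleen (log2 fold change 4.27, SE 0.36, adjusted p = 2.7e-14). Il10, the anti-inflammatory cytokine, was at 254, 469.5, 568, 344 and 731 CPM in VAT and at 32.8, 29.8, 46.6, 43.9 and 61.3 CPM in spleen (log2 fold change 3.46, SE 0.38, adjusted p = 3.24e-10). The groups were apart for both genes, but lung Tregs differed between them. Areg was at 333 to 558 CPM in lungs and did not pass the test against VAT (log2 fold change 0.61, SE 0.30, adjusted p = 0.261), whereas Il10 was at 33.5 to 116 CPM in lungs and higher in VAT (3.14, SE 0.37, adjusted p = 3.81e-08).

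Cxcl2 and Cxcl3, which lie on chromosome 5 with 114270 bases between them, were also higher in VAT. Both encode chemokines that attract neutrophils. Cxcl2 was at 309, 609.7, 697, 446 and 775 CPM in VAT and at 4.85, 18.2, 16.5, 103 and 14.2 CPM in spleen (log2 fold change 4.20, SE 0.78). Cxcl3 was at 91.1, 237, 348, 248 and 324 CPM in VAT and at 3.36, 0, 0, 0 and 0 CPM in spleen (log2 fold change 8.34, SE 1.47). Both chemokines are made in quantity by macrophages, and 5 of the 16 macrophage, monocyte and dendritic cell markers were higher in VAT as given above. Their part in the chemokine levels was not tested. Granzyme B (Gzmb, 2.66), the fibrinogen-like protein Fgl2 (2.24), the proprotein convertase Furin (2.69) and ornithine decarboxylase (Odc1, 1.78) were higher on the log2 scale as well. Il5, the eosinophil growth factor, was at 35.4, 2.89, 32.1, 17.8 and 56.9 CPM in VAT and at 0, 2.33, 0, 0 and 0 CPM in spleen. Its log2 fold change of 5.83 (SE 1.86, adjusted p = 0.0316) lost its call without mouse 1 (adjusted p = 0.0588), 3 (0.124), 4 (0.109) or 5 (0.115) and by DESeq2 (0.0883). Nt5e, the ectoenzyme CD73 that makes adenosine, was lower, at 268, 181, 48.9, 167 and 102 CPM in VAT against 349, 534, 492, 463 and 468 CPM in spleen (log2 fold change -1.58, SE 0.24), and so was lymphotoxin alpha (Lta, -2.98).

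The bases before the start of 3 genes of these groups are shown because they hold a motif that NF-κB or CREB and ATF factors recognise. The NF-κB motif was GGG, any 2 bases and TTTCC, and the other TGACGTCA. They are 150 bases 5′ to 3′ on the strand of the gene, from RefSeq (GRCm38.p6), with the match on either strand in capitals. They lie at chr12:55492648-55492797 (minus strand, Nfkbia), chr5:90785951-90786100 (plus strand, Cxcl3) and chr5:91139449-91139598 (plus strand, Areg).
Nfkbia: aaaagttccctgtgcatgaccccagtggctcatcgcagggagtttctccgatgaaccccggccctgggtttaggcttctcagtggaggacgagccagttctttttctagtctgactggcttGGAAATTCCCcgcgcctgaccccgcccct
Cxcl3: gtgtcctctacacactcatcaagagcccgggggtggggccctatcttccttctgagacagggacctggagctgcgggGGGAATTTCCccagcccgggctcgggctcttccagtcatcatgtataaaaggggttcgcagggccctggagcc
Areg: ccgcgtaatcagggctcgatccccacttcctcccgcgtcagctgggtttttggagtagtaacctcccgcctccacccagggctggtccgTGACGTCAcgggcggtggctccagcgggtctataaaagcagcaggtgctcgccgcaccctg
The 250 bases before the start were searched on both strands in the 10360 of 13172 tested symbols that had a RefSeq window. The NF-κB motif was in 1.53% of all windows, in 3.03% of those of higher genes (19 of 628) and in 2.24% of those of lower genes (12 of 536). Among the higher genes of the NF-κB list it was in 3 of 8 (Rel, Nfkbia and Tnfaip3), and among those of the effector list in 2 of 8 (Cxcl2 and Cxcl3). TGACGTCA was in 2.65%, 3.34% and 2.43% of the same windows, and the AP-1 motif TGANTCA in 4.17%, 5.73% and 4.66%, with 0 of the 23 windows of the AP-1, immediate early and heat shock list holding it. A match is a description of the sequence and not a site shown to be bound.

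**Figure D2:**
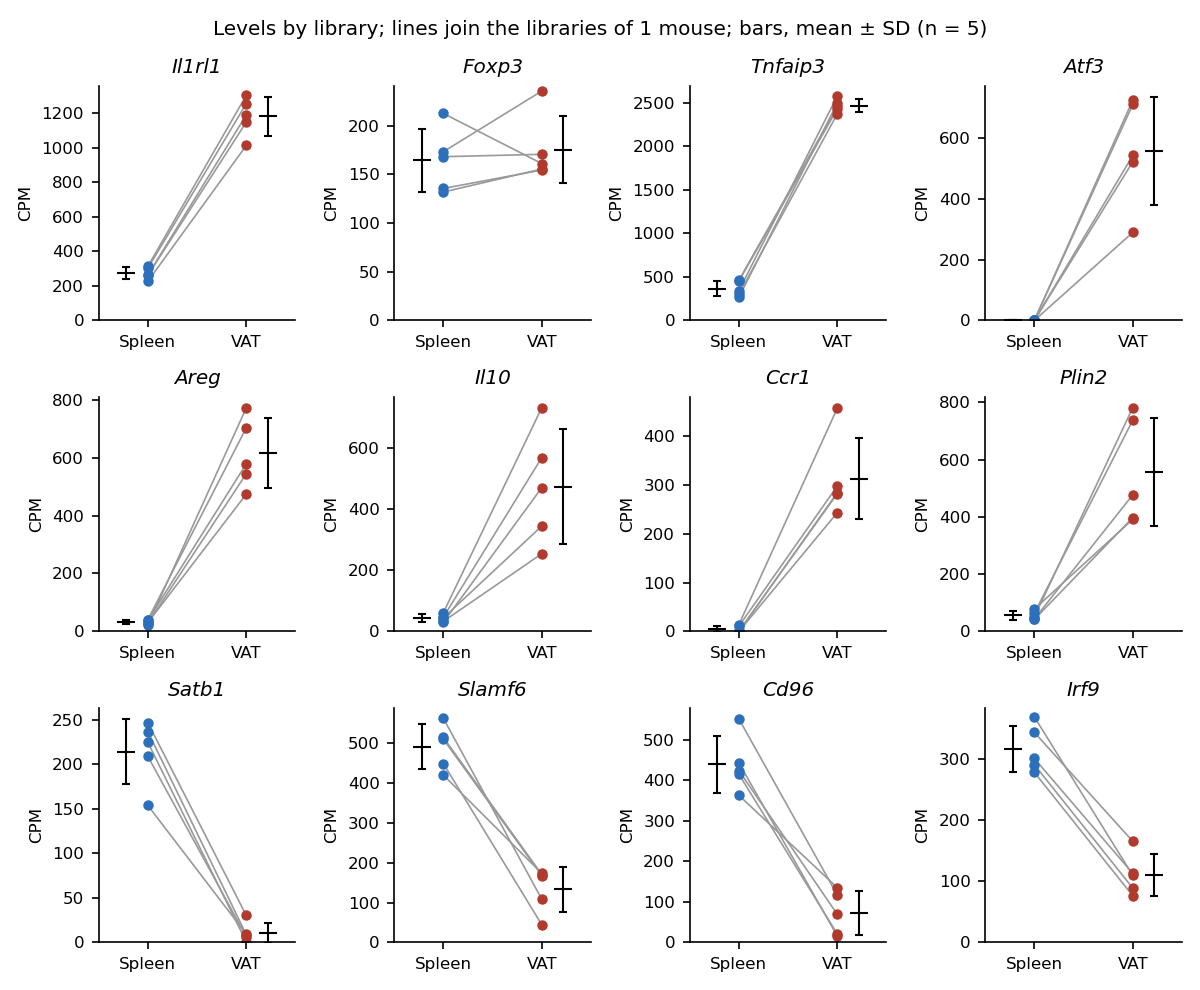
Levels of 12 genes in CPM in each spleen (blue) and VAT (red) ST2+ library, with lines joining the libraries of 1 mouse and bars giving the mean and SD of 5 libraries. The lines of Il1rl1, Tnfaip3, Atf3, Areg, Il10, Ccr1 and Plin2 rose in all 5 mice, those of Satb1, Slamf6, Cd96 and Irf9 fell in all 5, and the Foxp3 groups overlapped.

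Transcription factors known from tissue Tregs were mostly higher in VAT, with 11 of 17 higher, 1 lower (Batf) and a median log2 fold change of 0.93. Without mouse 5 there were 7 higher, and the Batf call (-0.59 in the full fit) was lost without mouse 2 (-0.47, adjusted p = 0.121), 3 (-0.53, adjusted p = 0.0894) or 4 (-0.57, adjusted p = 0.0714), and in the 10 libraries alone with mouse as a block (-0.62, adjusted p = 0.0563). Gata3, a master regulator of type 2 immunity that is needed for ST2, was at 478, 460.3, 569, 496 and 610.2 CPM in VAT and at 279.8, 269, 219.7, 273 and 229.9 CPM in spleen (log2 fold change 1.04, SE 0.13, adjusted p = 1.13e-08). Pparg was at 175, 332, 268, 204 and 319 CPM in VAT and at 41, 17.2, 11.9, 22.2 and 12.4 CPM in spleen (log2 fold change 3.63, SE 1.03, adjusted p = 0.0115). The groups were apart for both, yet the Pparg call was lost without mouse 4 (3.74, adjusted p = 0.0634) or mouse 5 (3.40, adjusted p = 0.0839). Rora, a nuclear receptor, was at 786, 835, 886, 942 and 698 CPM in VAT and at 280.1, 271, 238, 315 and 333 CPM in spleen (1.53, SE 0.29). Irf4, which T cell receptor signals induce, was at 269, 201, 229, 218 and 299 CPM in VAT and at 61.2, 28.9, 49.2, 14.5 and 33.3 CPM in spleen (2.69, SE 0.62). Bhlhe40 (1.62), Nfil3 (1.51), Ikzf3 (0.93) and Hif1a (0.73) were also higher on the log2 scale. Blimp-1 (Prdm1, 0.14), c-Maf (Maf, 0.44) and Helios (Ikzf2, -0.13) did not pass the test. Against lungs 0 of the 17 genes were called higher in VAT and 1 lower, against 172 and 306 of all 13173 genes tested. Pparg stood at 44 to 75.1 CPM in lungs, below every VAT library. Its difference from lungs did not pass the test (log2 fold change VAT over lungs 2.18, SE 0.96, adjusted p = 0.195).

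The receptor chain that binds IL-33 was higher in VAT, while the adjoining IL-18 receptor gene was lower. Il1rl1 (chromosome 1:40429570-40465415), whose product was used to sort both groups, was at 1012, 1189, 1302, 1147 and 1254 CPM in VAT and at 226, 262, 313, 261 and 302 CPM in spleen (log2 fold change 2.11, SE 0.38, adjusted p = 3.49e-05). Lung ST2+ Tregs lay below VAT at 752 to 959 CPM, a difference that did not pass the test (0.44, SE 0.37, adjusted p = 0.576). Il18r1 (chromosome 1:40465552-40500854) begins 136 bases after the end of Il1rl1 on the same strand and was at 93.1, 64.3, 35.8, 191 and 15.9 CPM in VAT against 153, 247, 167, 262 and 211 CPM in spleen. It was lower in VAT in all 5 mice although the groups overlapped (log2 fold change -1.36, SE 0.34, adjusted p = 0.0031), and the call was lost without mouse 2 (-1.22, adjusted p = 0.0533) and in the 10 libraries alone without a block (-1.37, adjusted p = 0.082). Il18rap, the second IL-18 receptor chain and the next gene on the chromosome, did not pass the test (0.64, SE 0.40, adjusted p = 0.303). Of the 13 genes of IL-33 and IL-18 receptor signalling 2 were higher, Il1rl1 and the kinase Map3k8 (1.64), and 1 was lower. Il1rap, the shared co-receptor (38.9 CPM in VAT, 32.1 CPM in spleen), and Myd88 (101 and 133 CPM) did not pass the test.

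Among 15 Treg identity genes 2 were higher and 5 lower (median log2 fold change 0.08). Il2ra, the high-affinity IL-2 receptor chain CD25, was at 617, 611, 782, 740.2 and 1288 CPM in VAT and at 479.7, 449, 452, 405 and 391 CPM in spleen (0.89, SE 0.16), and Ctla4 was higher by 1.12 (SE 0.15). Neuropilin 1 (Nrp1, -1.12), Eos (Ikzf4, -1.38), the folate receptor family gene Izumo1r (-1.81), Gpr83 (-1.82) and Itgb8 (-1.36) were lower. Gpr83 lost its call without mouse 3 (-1.64, adjusted p = 0.0735) or in the 10 libraries alone without a block (-1.81, adjusted p = 0.0539), and Itgb8 without mouse 1 (-1.20, adjusted p = 0.0526) or 2 (-1.18, adjusted p = 0.0984). Itgae, which encodes the integrin chain CD103, varied widely in VAT, at 189, 129, 1.36, 20.5 and 0 CPM against 436, 356, 627, 354 and 362 CPM in spleen (log2 fold change -2.64, SE 0.57, adjusted p = 0.000627). Its call was lost when the 10 libraries were fitted alone, without (-2.65, adjusted p = 0.0673) or with mouse as a replicate block (-3.74, adjusted p = 0.0544). Mice 3 and 5 had next to no Itgae in VAT, whereas mice 1 and 2 kept some, and every VAT library lay below spleen.

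Of 16 chemokine receptor genes 7 were higher in VAT and 2 lower. Ccr1 was at 243, 298, 282, 284 and 457 CPM in VAT and at 0, 10.7, 0, 0 and 13.8 CPM in spleen (log2 fold change 5.95, SE 0.83, adjusted p = 1.66e-07). Ccr2, the receptor for monocyte chemoattractant proteins, was at 745, 1066, 933, 799 and 1186 CPM in VAT and at 66.4, 94.1, 82.7, 167 and 129.6 CPM in spleen (3.13, SE 0.45). Both groups of libraries were far apart for these receptors. Ccr3 (3.63), Cxcr4 (2.23), Cxcr6 (2.13) and the atypical receptor Ccrl2 (1.59) were higher too on the log2 scale. Cxcr5, which leads cells into B cell follicles, was at 0 in all 5 VAT libraries and at 42.5, 62.4, 19.6, 29 and 18.8 CPM in spleen, at least 113-fold lower in VAT against a floor of 3 counts over the VAT group. Ccr7, which leads cells into T cell zones and lymph, was at 48.9, 27.2, 24.9, 162 and 50.2 CPM in VAT and at 259.6, 224, 199, 161 and 238 CPM in spleen (-1.78, SE 0.44), a call that was lost by voom with quality weights (-2.01, adjusted p = 0.0842). The VAT library of mouse 4 reached the spleen level of Ccr7 and the other VAT libraries did not. Against lungs Ccr1 was higher in VAT and Ccr7, Cxcr5 and Ccr6 were lower. Ccr1 and Ccr2 are also abundant in macrophages and monocytes, for whose markers the levels are given above, and the part of such cells was not tested.

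Among 18 integrins and G-protein regulators of migration 4 were higher and 5 lower. Ltb4r1, the receptor for the lipid attractant leukotriene B4, was at 408, 492, 475, 429.8 and 688 CPM in VAT and at 7.46, 7.45, 20, 52.7 and 25.5 CPM in spleen (4.47, SE 0.51, adjusted p = 6.44e-10). It was higher in VAT than in lungs as well, where it was at 139.6 to 205 CPM (1.65, SE 0.45, adjusted p = 0.0191). Rgs2 (2.53) and Itgav (2.38) were higher, whereas the exit receptor S1pr1 (-0.72), the oxysterol receptor Gpr183 (-0.95) and the prostaglandin receptor Ptger4 (-1.27) were lower. The S1pr1 call was lost without mouse 3 (-0.64, adjusted p = 0.0622) or mouse 5 (-0.52, adjusted p = 0.0877), and in the 10 libraries alone without (-0.72, adjusted p = 0.0636) or with mouse as a block (-0.79, adjusted p = 0.0697).

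Genes of recirculating and quiescent T cells were lower in VAT, 12 of 18 lower and 0 higher, with a median log2 fold change of -1.66. Satb1, a chromatin organiser that declines as T cells leave the resting state, was at 30.2, 0.579, 8.6, 6.38 and 9.26 CPM in VAT and at 247, 224, 237, 209 and 154 CPM in spleen (log2 fold change -4.20, SE 0.46, adjusted p = 2.33e-10). Bach2, a repressor of effector genes, was at 9.55, 0, 0, 3.19 and 1.32 CPM in VAT and at 63, 44.7, 53.5, 45 and 64.8 CPM in spleen (-4.13, SE 0.55). For both of them every VAT library was below every spleen library. Tcf7, the transcription factor TCF-1, was at 129, 44.6, 32.6, 96.2 and 37 CPM in VAT and at 273, 299, 276, 233 and 229 CPM in spleen (-1.93, SE 0.33). Lef1 (-1.14), Klf3 (-1.75), Id3 (-2.43) and Foxo1 (-0.79) were lower too, whereas Klf2 (-0.29) and Foxp1 (-0.26) did not pass the test and Il7r stood at 0.52 without a call. Against lungs 12 of the 18 genes were lower in VAT and 0 higher (median -1.26), against 306 and 172 of all 13173 genes tested. Satb1 stood at 128 to 174 CPM in lungs.

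Slamf6 and Cd96, surface receptors of T cells, had among the smallest adjusted p of all lower genes. Slamf6 was at 173, 168, 44.4, 108 and 171 CPM in VAT and at 420.4, 510.5, 449, 563 and 515 CPM in spleen (-1.89, SE 0.18, adjusted p = 2.43e-12). Cd96 was at 135, 69.5, 20.8, 117 and 15.9 CPM in VAT and at 363, 424, 415, 552 and 443 CPM in spleen (-2.60, SE 0.25, adjusted p = 2.09e-12). Lax1, an adaptor that damps receptor signals, was at 51.7, 27.2, 45.3, 69.7 and 24.5 CPM in VAT and at 247, 219.8, 269.7, 258 and 293 CPM in spleen (-2.55, SE 0.24). No VAT library reached the spleen range for these genes.

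**Figure D3:**
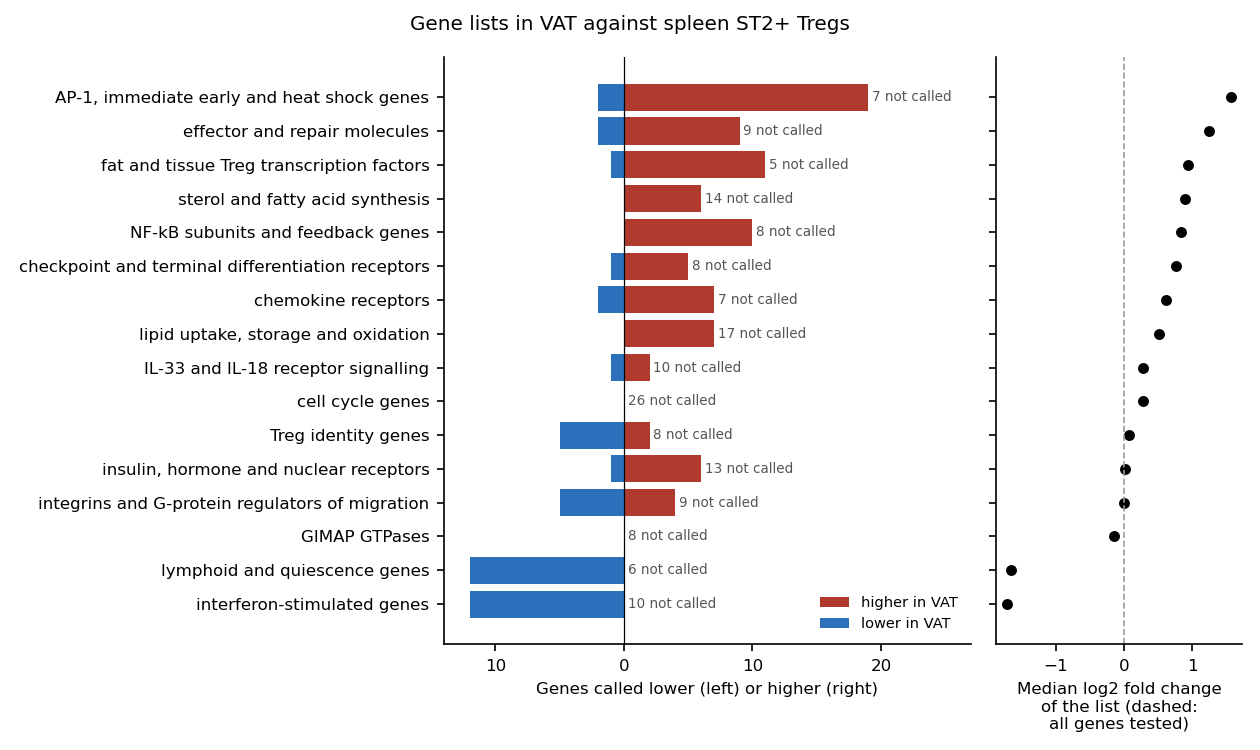
For each of 16 gene lists, the number of genes higher (red, right) or lower (blue, left) in VAT than in spleen ST2+ Tregs, with the number not called beside the bar, and on the right the median log2 fold change of the list with the median of all genes tested as a dashed line. AP-1, immediate early and heat shock genes were at the top with 19 higher, and lymphoid and interferon-stimulated genes at the bottom with 12 lower each.

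Genes that interferons induce were lower in VAT, 12 of 22 lower and 0 higher, with a median log2 fold change of -1.71. Without mouse 4 there were 7 lower. Irf9 (chromosome 14:55603571-55610030), a DNA-binding part of the complex that type I interferons activate, was at 113, 165, 88.7, 109 and 76 CPM in VAT and at 300.3, 343, 290.1, 368 and 278 CPM in spleen (-1.52, SE 0.22, adjusted p = 3.06e-07). Rtp4, a chaperone for receptors, was at 11.5, 13.9, 0, 0 and 5.95 CPM in VAT and at 84.3, 102, 78.5, 157 and 83.2 CPM in spleen (-4.01, SE 0.51). These genes were apart between the groups in all libraries. The antiviral genes Oas1a (-2.05), Gbp2 (-1.17), Gbp3 (-1.49) and Usp18 (-3.57) were lower on the log2 scale, and Ifit1 was at 14.3, 21.4, 0.453, 0 and 0 CPM in VAT against 101, 40.1, 45.8, 175 and 46 CPM in spleen. The Ifit1 log2 fold change of -3.48 (SE 0.93, adjusted p = 0.00636) lost its call without mouse 4 (-2.66, adjusted p = 0.0941). Isg15 (-0.30), Isg20 (0.01), Ifi27l2a (-0.05) and Bst2 (0.51) did not pass the test, so the list was not lower throughout. Irf9 in lungs was at 150.3 to 229.7 CPM. In VAT 5 of the 22 genes were lower and 1 higher than in lungs, against 306 and 172 of all 13173 genes tested.

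The bases before the start of 3 of these lower genes are shown for their copies of the core of the interferon-stimulated response element, written as GAAA, any 2 bases and GAAA. They are printed as above, with the matches on either strand in capitals, and matches that overlap merge into 1 run in Oas1a and Gbp3. They lie at chr19:34640739-34640888 (plus strand, Ifit1), chr5:120907526-120907675 (minus strand, Oas1a) and chr3:142559894-142560043 (plus strand, Gbp3).
Ifit1: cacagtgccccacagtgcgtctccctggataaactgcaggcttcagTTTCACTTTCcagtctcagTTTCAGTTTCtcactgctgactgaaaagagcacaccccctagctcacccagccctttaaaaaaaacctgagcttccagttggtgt
Oas1a: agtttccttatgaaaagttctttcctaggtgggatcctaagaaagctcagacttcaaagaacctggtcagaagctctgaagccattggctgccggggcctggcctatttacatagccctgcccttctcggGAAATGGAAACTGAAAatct
Gbp3: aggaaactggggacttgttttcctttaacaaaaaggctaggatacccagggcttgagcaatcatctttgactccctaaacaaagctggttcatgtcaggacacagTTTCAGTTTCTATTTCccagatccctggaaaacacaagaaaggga
This motif was in 2.83% of the windows of all genes, in 7.65% of those of lower genes (41 of 536) and in 2.55% of those of higher genes (16 of 628). In the interferon-stimulated list 9 of 15 genes with a window held it, 4 of them among the 9 lower genes with a window (Ifit1, Oas1a, Gbp2 and Gbp3).

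Genes of lipid handling were higher in VAT in part, 7 of the 24 tested being higher and 0 lower (median log2 fold change 0.51). Plin2, which coats lipid droplets, was at 397, 782, 477, 392 and 738 CPM in VAT and at 42.2, 50.8, 43.5, 78.1 and 63.8 CPM in spleen (3.32, SE 0.51, adjusted p = 1.57e-06). Dgat1, which makes triglyceride, was at 369, 364, 459, 418 and 397 CPM in VAT and at 71.6, 107, 89.6, 54.8 and 103 CPM in spleen (2.23, SE 0.26). Both were apart between the groups, and Plin2 was also higher than in lungs, where it was at 76.6 to 118 CPM (2.56, SE 0.50, adjusted p = 0.00042). Hilpda, a lipid droplet protein that inhibits lipolysis and was not on the list, was at 307, 596, 437, 408 and 614 CPM in VAT and at 24.2, 50.8, 70, 53.8 and 70.8 CPM in spleen (3.13, SE 0.25). The fatty acid receptor Cd36 was at 55.7, 23.7, 43.5, 16.9 and 50.2 CPM in VAT and at 0 in all spleen libraries, at least 156-fold higher, and lost its call without mouse 5 (adjusted p = 0.0542). The call of Cpt1a, which admits fatty acids to mitochondria (0.98), was lost without mouse 2 (0.91, adjusted p = 0.0656). The count of higher lipid genes was 4 without mouse 2, 3 or 4 or without the VAT library of mouse 4 alone, and 3 without mouse 5. Plin2 and Cd36 are also made by macrophages and adipocytes, and the levels of their markers are given above.

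Of 20 genes of sterol and fatty acid synthesis 6 were higher and 0 lower (median 0.89), and 3 were higher without mouse 3, without mouse 4 or without the VAT library of mouse 4 alone. Nsdhl, an enzyme of cholesterol synthesis, was at 125, 139, 110.0, 108 and 122 CPM in VAT and at 76.5, 37.7, 47.7, 53.8 and 67.6 CPM in spleen (1.09, SE 0.25, adjusted p = 0.00152), and the groups did not overlap. Among 20 insulin, hormone and nuclear receptor genes 6 were higher and 1 lower (median 0.02), and 3 were higher without mouse 4. Irs2, an adaptor of the insulin receptor, was at 216, 669.9, 369.8, 383 and 349.7 CPM in VAT and at 32.1, 19.1, 10, 36.2 and 18.4 CPM in spleen (4.11, SE 0.32, adjusted p = 1.5e-15). Nr3c1, the glucocorticoid receptor, was higher by 1.31 (SE 0.19), and Igf1r, a receptor for insulin-like growth factor, was lower, at 19.9, 0, 3.62, 12.8 and 1.98 CPM in VAT against 45.1, 59.2, 63.5, 58.9 and 62.3 CPM in spleen (-2.86, SE 0.48). The insulin receptor itself (Insr) was at a mean of 73.9 CPM in VAT and 81.1 CPM in spleen and did not pass the test.

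Among 14 checkpoint and terminal differentiation receptors 5 were higher and 1 lower. Cd200r1, an inhibitory receptor, was at 421, 544, 533, 503 and 621 CPM in VAT and at 161, 209.6, 207, 240.4 and 235 CPM in spleen (1.32, SE 0.25), and Cd69, which holds cells in tissue, was higher by 1.18 (SE 0.22). Klrg1, a mark of terminal differentiation, was at 754, 985, 812, 788 and 1240.2 CPM in VAT and at 514, 362, 472, 511 and 481 CPM in spleen. Its groups did not overlap, yet its log2 fold change of 0.97 (SE 0.47, adjusted p = 0.169) did not pass the test. No gene was called by edgeR, DESeq2 or voom among 26 cell cycle genes (median 0.28, 1 at an unadjusted p under 0.05 in edgeR) or 8 GIMAP GTPases (median -0.14, 2 at that p). Mki67, which marks dividing cells, was at a mean of 64.4 CPM in VAT and 33.9 CPM in spleen (0.93, adjusted p = 0.33).

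Some genes with large differences lay outside the lists. Of those at 5 CPM or more in every library of the higher group, Slco2b1, an organic anion transporter, was at 15.5, 78.2, 46.6, 72.9 and 9.26 CPM in VAT and at 0 in spleen, at least 180.3-fold higher. Jup, the junction protein plakoglobin, was at 33.4, 11.6, 76.5, 55.6 and 35 CPM in VAT and at 0 in spleen, at least 179-fold higher. Fam183b was at 29, 89.2, 39.8, 43.8 and 71.4 CPM in VAT and at 0 in spleen, at least 208-fold higher. Tyrobp, the adaptor DAP12 of NK and myeloid cells, was at 12.7, 108, 13.1, 69.3 and 21.2 CPM in VAT and at 0 in spleen, at least 172-fold higher. Markers of those cells are given above, and the part of such cells in the Tyrobp level was not tested. In the other direction Nsg2, an endosomal protein of neurons, was at 0 in VAT and at 31.7, 38.2, 35.8, 23.3 and 40.4 CPM in spleen, at least 116-fold lower. The carboxylesterase Ces2c was at 0.398 CPM in VAT of mouse 1, at 0 in the other VAT libraries and at 69, 44.7, 66.2, 62 and 67.3 CPM in spleen. With only a few counts in VAT the ratio of 636 has a 95% counting interval of 114 to 25154. Carboxypeptidase M (Cpm) was at 512, 721, 632, 716 and 528 CPM in VAT and at 170.1, 129, 132, 164 and 158 CPM in spleen (2.04, SE 0.15, adjusted p = 1.61e-16), and the transmembrane gene Tmem64 was higher by 1.93 (SE 0.15, adjusted p = 1.5e-15).

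To ask whether the difference between the tissues belonged to ST2+ Tregs, the same contrast was made in ST2- CD44hi Tregs, in other libraries of the same mice. There 778 genes differed, 5.91% of those tested, 589 higher and 189 lower in VAT, and 508, 469, 454 and 491 without mouse 2, 3, 4 and 5 in turn. Genes higher in both populations numbered 382, which is 48.5% of the 787 and 64.9% of the 589, and genes lower in both numbered 112, which is 16.2% of the 693 and 59.3% of the 189. Only 3 genes were called in opposite directions. The VAT ST2- libraries of mice 2 to 5 were made from 93, 192, 118 and 135 cells. All other libraries of these 4 groups were made from 220 cells. The part of cell number in the calls of ST2- Tregs and in these shares was not tested. The 787 genes higher in ST2+ Tregs had a median log2 fold change of 1.67 in ST2+ and 1.05 in ST2- Tregs, and 724 had the same sign. For the 693 lower genes the medians were -1.70 and -0.59, and 613 had the same sign. Across all genes tested 67.4% had the same sign and Pearson's r was 0.474, across genes that are not independent. Of the 28 AP-1, immediate early and heat shock genes 15 were higher in VAT in both populations and 1 was lower in both. The interferon-stimulated list had 5 of 22 lower in ST2- Tregs and the lymphoid list 7 of 18 lower and 1 higher.

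The test of the difference between the 2 contrasts called 52 genes, 0.395% of those tested, 12 more positive and 40 more negative in ST2+ Tregs. Without mouse 2 there were 14, without mouse 3 there were 20, without mouse 4 there were 26 and without mouse 5 there were 10. Il2ra differed between tissues in opposite directions, higher in VAT in ST2+ Tregs and lower in VAT in ST2- Tregs (202 to 365 CPM in VAT, 359 to 503 CPM in spleen, log2 fold change -0.59, SE 0.16, adjusted p = 0.0123). The difference of the log2 fold changes was 1.48 (SE 0.23, adjusted p = 0.000141). Slamf6 was at 403 to 699 CPM in VAT and 522 to 678 CPM in spleen in ST2- Tregs, so that its lower level in VAT was larger in ST2+ Tregs by 1.59 (log2 difference -1.59, SE 0.25, adjusted p = 0.000141). Cd96 behaved alike, at 259 to 371 CPM in VAT and 415 to 518 CPM in spleen in ST2- Tregs (difference -1.98, SE 0.33, adjusted p = 0.000274). With the libraries of the compared groups fitted alone, the Cd96 difference was not called without (-1.97, adjusted p = 0.122) or with mouse as a replicate block (-2.11, adjusted p = 0.0922), and that of Slamf6 was not called without the block (-1.58, adjusted p = 0.0594).

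Il18r1 was lower in VAT in ST2+ Tregs and higher in VAT in ST2- Tregs, where it was at 169 to 470.0 CPM in VAT and 71.1 to 133 CPM in spleen (1.53, SE 0.34, adjusted p = 0.00126). The difference of -2.89 (SE 0.48, adjusted p = 0.00026) was not called without mouse 2 (-2.58, adjusted p = 0.0515). Rtp4 (-3.33, SE 0.66, adjusted p = 0.00475) was also more negative in ST2+ Tregs. Rtp4 lost this call without mouse 4 (-2.72, adjusted p = 0.128) or 5 (-3.49, adjusted p = 0.0681), and in the compared groups alone without (-3.32, adjusted p = 0.0832) or with mouse as a block (-3.47, adjusted p = 0.0887). For Areg (0.65), Il10 (0.50), Tnfaip3 (-0.19), Gata3 (0.33) and Pparg (-2.79) the difference between the contrasts did not pass the test. Il1rl1 differed by -1.58 (SE 0.88, adjusted p = 0.629), and its product set the gate between the populations.

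**Figure D4:**
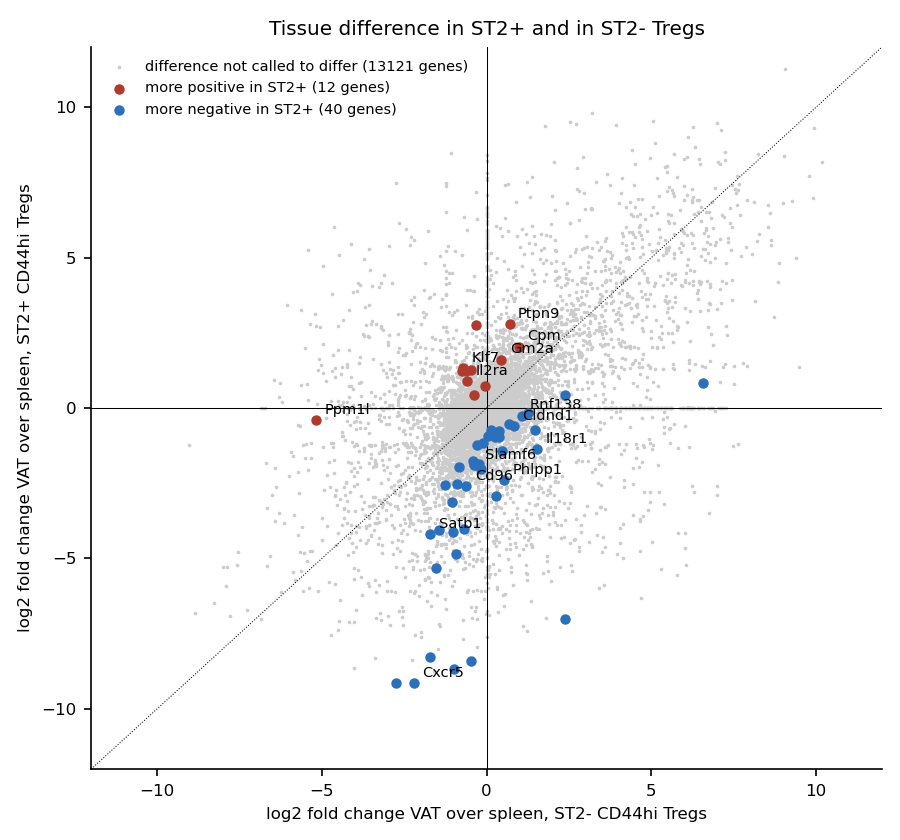
Log2 fold change of VAT over spleen for each gene in ST2- CD44hi Tregs (x axis) and in ST2+ CD44hi Tregs (y axis), with the 52 genes whose fold changes differed in colour and the dotted line marking equal fold changes. The 40 blue genes, among them Slamf6, Cd96 and Il18r1, lay below the line and the 12 red genes, among them Il2ra, Klf7 and Cpm, above it.

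Set against ST2+ Tregs of the lungs, which went through the same digestion, VAT had 478 DEGs, 3.63% of the genes tested, 172 higher and 306 lower. There were 277 without mouse 2, 270 without mouse 3 and 214 without mouse 5. This contrast uses the same VAT libraries as that with spleen, so the 2 sets of values are given side by side and not as separate support. Il2ra (1.39), Il10 (3.14) and glutamine synthetase (Glul, 1.95, SE 0.27, adjusted p = 8.73e-07) were among the higher genes with the smallest adjusted p. Glul was at 90.3, 219, 124, 153 and 221 CPM in VAT, at 17.5, 22.8, 31.2, 40.3 and 31.2 CPM in spleen and at 35.8 to 49.3 CPM in lungs. Slamf6 (-2.03), Cd96 (-2.33), St6gal1, a sialyltransferase (-2.46), and the pseudokinase Trib2 (-1.98) were lower in VAT than in lungs, and Slamf6 was at 517 to 577 CPM in lungs.

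The levels of 12 genes in ST2+ Tregs of all 6 tissues placed VAT and spleen in the wider series, as a description without tests other than those given. Plin2 was at a mean of 557 ± 189 CPM in VAT (SD, n = 5) and at means of 54.6 to 100.5 CPM in the other 5 tissues, and no library of those reached the lowest VAT library. Ltb4r1 (499 ± 111 CPM in VAT) and Pparg (259 ± 69.1 CPM) were likewise above every library of the other tissues, with means of 22.6 to 158 CPM and 21 to 57.2 CPM elsewhere. Areg was low in blood and spleen (means of 31.2 and 31.9 CPM) and stood at 324 to 614 CPM in the means of the remaining tissues, where the VAT range overlapped lungs and colon but not skin. Il10 had means of 4.49 CPM in blood, 42.9 CPM in spleen and 53.4 CPM in lungs and of 299 to 485 CPM in VAT, colon and skin, whose libraries overlapped. Il1rl1 was lowest in spleen (273 ± 34.8 CPM) and had its highest mean in skin (1456 ± 104 CPM), followed by VAT (1181 ± 112 CPM). Satb1 was at 11 ± 11.3 CPM in VAT and at means of 81.8 to 214 CPM elsewhere, and the highest VAT library lay below the lowest of every other tissue. Cd96 had like means in VAT (71.7 CPM) and skin (71.9 CPM) and was at 342 to 507 CPM in the other means.

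**Figure D5:**
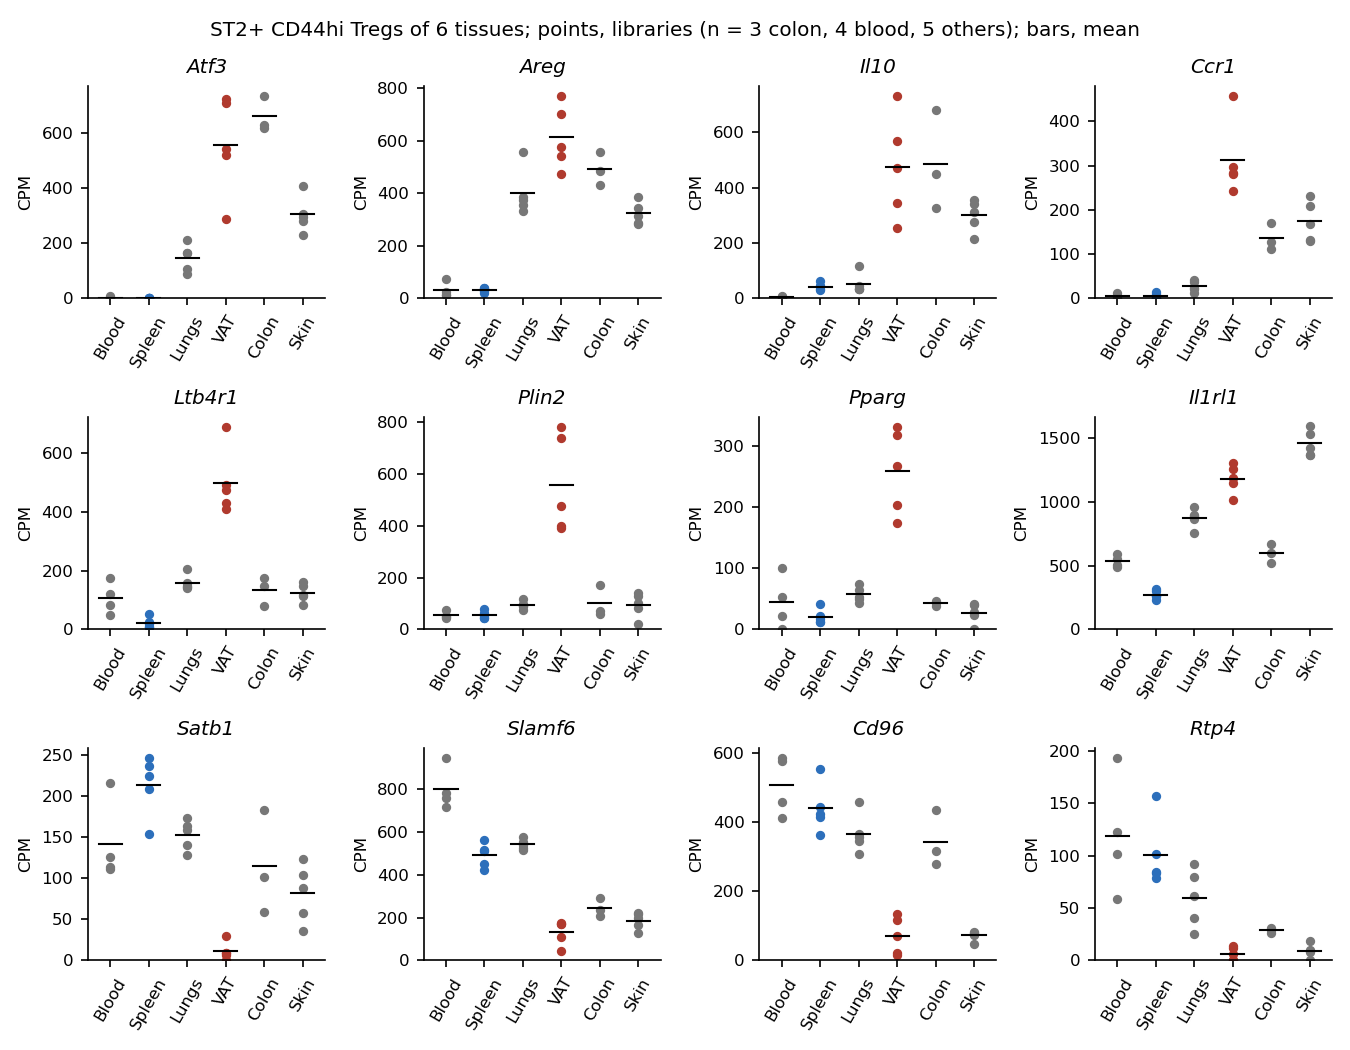
Levels in CPM of 12 genes in ST2+ CD44hi Tregs of 6 tissues, with VAT in red, spleen in blue, a point per library (3 in colon, 4 in blood and 5 in the others) and bars for means. Plin2, Ltb4r1 and Pparg had their highest mean in VAT, and Satb1 its lowest.

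T cell receptor V genes, which lie outside the protein-coding filter, were less evenly used in VAT in the test over libraries. The effective number of Trbv genes (the inverse Simpson index of their counts, which falls when a few genes dominate) was 14.5, 6.79, 7.21, 11.8 and 8.20 in VAT and 12.8, 14.9, 14.9, 14.4 and 14.3 in spleen, on 1145 to 2198 and 2140 to 2971 Trbv counts per library. Mouse 1 had a VAT value inside the spleen range, and the other 4 VAT values were below it. VAT averaged 9.69 ± 3.32 and spleen 14.3 ± 0.863 (SD, 5 libraries each), and VAT minus spleen was -4.58 (two-sided exact permutation p = 0.0317, where the smallest possible is 0.00794). Tested within mice the exact p was 0.125, but with 5 pairs the smallest possible is 0.0625, so that no result could pass 0.05 there. Without mouse 2 the difference was -3.69 (exact p = 0.114), without mouse 3 -3.80 (exact p = 0.114), without mouse 4 -5.07 (exact p = 0.0857) and without mouse 5 -4.21 (exact p = 0.0857). Over Trav genes the index was 14.8 ± 6.90 in VAT and 29.6 ± 2.32 in spleen (exact permutation p = 0.00794), on 491 to 890 and 556 to 1459 Trav counts per library. Single Trbv genes held over 20% of the Trbv counts in 3 VAT ST2+ libraries, namely Trbv16 (27.9%) and Trbv15 (21.3%) in mouse 2, Trbv30 (23.4%) in mouse 3 and Trbv15 (22.7%) in mouse 5, and in no spleen library. The ST2+ shares rest on single libraries of 220 cells and cover neither clone identity nor CDR3 sequence. In VAT ST2- Tregs of mouse 5 Trbv1 held 26.3% and the Trbv index was 8.89, against 13.1 to 16.9 in the other VAT ST2- libraries. Lung ST2+ libraries had indices of 12.4 to 14.9.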

How the data were processed

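RNA of sorted Tregs was amplified with SMART-Seq v4, made into libraries with NexteraXT and sequenced as single reads. The authors aligned reads with STAR to GRCm38 and counted them per gene with HTSeq 0.4.1, and the deposited table holds these raw counts for 70 libraries. The strand setting of counting is not given in the sources used here, so overlapping antisense genes cannot be told apart. Gene names, types and coordinates came from GENCODE M21, which held 53274 of 53465 gene IDs. The 3 libraries at or under 1000000 counts were left out. Testing was limited to the 13173 protein-coding genes that reached 1 CPM in 10% or more of the 67 remaining libraries.

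Counts were fitted by edgeR 4.0.16 (R 4.3.3; TMM scaling, quasi-likelihood test) with 14 group terms and no mouse term. The spread of each gene was estimated over all 14 groups, so groups of libraries that did not overlap could still fail the test. Each SE is the size of the log2 fold change divided by the root of its F statistic. Where a group held 0 counts, folds are bounds against 3 counts over the group. Where it held 1 to 3 counts, an exact 95% interval is given, which covers counting error only. Permutation tests used scipy 1.17.1 in Python 3.11.15.

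The comparison and gene lists were chosen with earlier results of these data known. Named genes were the sort genes, the 12 DEGs per direction with the smallest adjusted p, the 6 largest changes per direction among genes with at least 5 CPM in each library of the higher group, members of the 16 lists, the 6 genes per direction with the smallest adjusted p in the interaction and against lungs, and Trbv genes over 20% of the Trbv counts of a library. Of these the text names a part, selected with their values known, besides markers of other cell types. Alternatives were DESeq2 1.42.0, voom with quality weights (limma 3.58.1), mouse as a replicate block, fits of the compared groups only, median-of-ratios factors, other filters, glmTreat and leaving out each mouse. Libraries of 1 mouse share its number, so the numbers pair the samples. Deviations from the means of VAT and spleen ST2+ libraries correlated with a mean r of 0.0288 within mice (-0.0111 to 0.0931) and -0.00714 between mice. Some genes are not reported here.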

Additional observations from a re-analysis of the deposited data

Results flagged for a closer look

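Of 118 sets of 5 libraries examined (58 genes and the Trbv index, each in VAT and in spleen), 15 held 1 library that stood apart by Dixon's 95% criterion. Its chance rate of 1 set in 20 holds for normally distributed values. A set whose other libraries are all at 0 meets it by construction, and the genes were selected with their values known. The 15 sets therefore cannot be weighed against that rate. In VAT these were Foxp3 in mouse 3 (235 CPM, others 154 to 170.5), Ccr1 in mouse 5 (457 CPM, others 243 to 298), Il2ra in mouse 5 (1288 CPM, others 611 to 782), Ccr7 in mouse 4 (162 CPM, others 24.9 to 50.2), Jchain in mouse 5 (999 CPM, others 1.82 to 47.3), Ncr1 in mouse 4 (78.4 CPM, others 0) and Ces2c in mouse 1 (0.398 CPM, others 0). In spleen they were Cxcl2 in mouse 4 (103 CPM, others 4.85 to 18.2), Hspa1a in mouse 4 (16.5 CPM, others 1.06 to 3.73), Lyz2 in mouse 5 (11.7 CPM, others 0 to 0.517), Klrg1 in mouse 2 (362 CPM, others 472 to 514), Ces2c in mouse 2 (44.7 CPM, others 62 to 69) and Igf1r in mouse 1 (45.1 CPM, others 58.9 to 63.5). Il5 in spleen of mouse 2 (2.33 CPM) and Cxcl3 in spleen of mouse 1 (3.36 CPM) were the only spleen libraries above 0 for these genes.

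The tissue difference of ST2+ Tregs differed from that of ST2- Tregs by the interaction test of edgeR for the genes below, given as the difference of log2 fold changes with its SE and adjusted p. It was more positive in ST2+ Tregs for Il2ra (1.48, SE 0.23, 0.000141), Klf7 (2.03, SE 0.38, 0.00276), carboxypeptidase M (Cpm, 1.06, SE 0.20, 0.00396), Gm2a (1.15, SE 0.25, 0.0118), Ppm1l (4.76, SE 1.05, 0.018) and Ptpn9 (2.09, SE 0.48, 0.0224). It was more negative for Slamf6 (-1.59, SE 0.25, 0.000141), Rnf138 (-1.32, SE 0.22, 0.00026), Cldnd1 (-1.44, SE 0.24, 0.00026), Il18r1 (-2.89, SE 0.48, 0.00026), Cd96 (-1.98, SE 0.33, 0.000274), Phlpp1 (-2.92, SE 0.50, 0.000407), Rtp4 (-3.33, SE 0.66, 0.00475), Nsg2 (-6.39, SE 1.30, 0.00748), Cxcr5 (-6.96, SE 1.46, 0.0117), Bach2 (-3.11, SE 0.71, 0.0224), Satb1 (-2.49, SE 0.60, 0.0337) and Lax1 (-1.28, SE 0.32, 0.0494).

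With 1 mouse left out, Il2ra, Klf7, Slamf6, Rnf138, Cldnd1, Cd96 and Phlpp1 kept this call in every case. In the compared groups alone with mouse as a replicate block, however, it was lost for Klf7 (2.06, adjusted p = 0.0882), Cd96 (-2.11, adjusted p = 0.0922) and Phlpp1 (-2.96, adjusted p = 0.104), and for Phlpp1 also by voom (-2.88, adjusted p = 0.0639). The same blocked fit lost 9 more of the genes above, among them Cpm (1.08, adjusted p = 0.0521), and Il2ra, Slamf6, Rnf138, Cldnd1, Il18r1 and Gm2a kept the call there. With 1 mouse left out it was lost for Cpm without mouse 3 (0.97, adjusted p = 0.073), for Gm2a without mouse 2 (1.05, adjusted p = 0.216) or 5 (1.06, adjusted p = 0.14), for Il18r1 without mouse 2 (-2.58, adjusted p = 0.0515), and for Ppm1l without mouse 1 (3.97, adjusted p = 0.138), 4 (4.81, adjusted p = 0.051) or 5 (4.81, adjusted p = 0.12). Ptpn9 lost it without mouse 1 (adjusted p = 0.0982), 2 (0.0802), 3 (0.0983) or 5 (0.17), and Nsg2 without mouse 1 (0.064) or 2 (0.135). Cxcr5 lost it without mouse 1 (adjusted p = 0.124), 3 (0.0967), 4 (0.0629) or 5 (0.0559), and Bach2 without mouse 2 (0.134), 3 (0.0967), 4 (0.227) or 5 (0.252). Satb1 lost it without mouse 2 (adjusted p = 0.101), 3 (0.352), 4 (0.0881) or 5 (0.227), and Lax1 without mouse 1 (0.175), 2 (0.254), 3 (0.0899), 4 (0.0502) or 5 (0.235). The values for Rtp4 are given in the report.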

How the results depend on the processing

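The 1480 DEGs of VAT against spleen ST2+ Tregs became 1558 with mouse as a replicate block in the fit of all 14 groups, of which 1410 were shared. They became 881 with the block in a fit of the compared groups only and 716 with glmTreat against a 1.5-fold change, and numbered 992 to 1521 with 1 mouse left out. For ST2- Tregs the 778 DEGs became 1245 by voom with quality weights and 305 by glmTreat, and 454 to 841 with 1 mouse left out. The 52 interaction genes became 139 by DESeq2, 113 by voom, 14 in the fit of the compared groups with or without the block and 10 by glmTreat, and 10 to 74 with 1 mouse left out. With the block in the fit of 14 groups they were 75. The 478 DEGs against lungs became 273 in the fit of the compared groups, 243 with the block added and 121 by glmTreat, and 214 to 597 with 1 mouse left out. With the block in the fit of 14 groups they were 541.

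The Trbv difference of -4.58 had p = 0.125 when tested within mice (paired, the replicate block), where 5 pairs cannot give less than 0.0625, and was -2.6 (exact p = 0.103) as the number of Trbv genes with at least 5% of counts. It ran from -6.14 to -3.69 with 1 mouse left out. Of the 161 named genes that were DEGs the replicate block in the fit of 14 groups lost 2 calls, Hspa1b (2.35, adjusted p = 0.0515) and Srebf2. The fit of the compared groups only lost 22 with the block and 18 without it. By glmTreat 35 were lost, and 7 to 21 with 1 mouse left out. None of the 161 reversed direction under any alternative run. The cause of these changes was not tested. After the data were seen, leaving out the VAT library of mouse 4 or of mouse 5 was added, and it lost 11 and 9 of the 161 calls. A gene at 1 CPM has about 2 counts in a library, so differences near that level were not detectable. Above it real differences can be missed too, and a gene that did not pass the test is not shown to be unchanged.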
